A study of Mus musculus with 14 samples.

Results

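The control line of a mouse embryoid body (EB) series was followed after d6, to describe the genes that go on rising or falling as the bodies mature. Its members are 4 of the 14 libraries of the series, chosen by their labels: shLacZ EBs of d6, d8, d10 and d12, each day standing for 1 library. EBs are aggregates in which mouse embryonic stem cells (mESCs) differentiate spontaneously. All 14 libraries come from mESCs that carry an Osr1-GFP reporter, Osr1 being a gene of the intermediate mesoderm that gives rise to the kidney, and that express a short hairpin RNA. In shLacZ the hairpin is directed against LacZ, a bacterial gene that mouse cells lack, so this is the control, and in shDis3l2 it is directed against Dis3l2, an exonuclease for uridylated RNA. Differentiation was started in both lines by taking away LIF and 2i, the inhibitors that hold mESCs undifferentiated, and by placing the cells in hanging drops with serum. The bodies were then kept in suspension in the same serum medium. The sources used here do not say how many bodies were pooled per library or whether a line is 1 clone.

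In the embryo, cells on the surface of the inner cell mass become extraembryonic endoderm. Its visceral part takes up nutrients and secretes carrier proteins such as Afp and the apolipoproteins, as the liver does later. Its parietal part lays down Reichert's membrane, a thick basement membrane of laminin and type IV collagen. EBs form an outer endoderm layer of both kinds over inner cells that give rise to mesoderm, with the first blood and endothelium, and to neural cells. As bulk samples, these libraries cannot tell fewer cells of a type from less RNA per cell.

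Between 8261330 reads (d10) and 16901814 reads (d8) were counted on genes per library, so that 3 counts, taken as the floor, stand for 0.177 to 0.363 CPM, the reads of a gene scaled to the library total. The share of reads on protein-coding genes went from 88.4% at d6 to 90.4% at d12. Dis3l2 itself was at 23.8, 20.2, 19.2 and 19.7 CPM in shLacZ from d6 to d12 and at 13.1, 19.6, 18.3 and 14.9 CPM in shDis3l2, lower in the knockdown at d6 and d12 and within 1 CPM of the control at d8 and d10. In all lists of values below, 4 CPM values in a row stand for d6, d8, d10 and d12 in that order. With 1 library per day, a fold between 2 days has no replicate check. The 95% interval beside each fold is exact (Clopper-Pearson, on the reads of both days), allows for counting error alone and speaks of these libraries, not of the days in general.

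The distance from d6 grew with each day, and mostly upward. The criterion for a day was a 3-fold difference with at least 1 CPM on 1 of the 2 days. At d8, 446 of 13170 protein-coding genes stood above d6 (3.39%) and 137 below it (1.04%). At d10 the numbers were 687 higher (5.18% of 13270) and 182 lower (1.37%). At d12 they were 836 higher (6.25% of 13377) and 143 lower (1.07%). The higher set thus grew at each day while the lower set was largest at d10. All 3 comparisons share the d6 library. The median gene shifted by 0.01 (d8), 0.03 (d10) and 0.07 (d12) on the log2 scale. Measured against the library before it, d10 had 150 genes higher and 125 lower, and d12 had 161 higher and 79 lower.

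**Figure D1:**
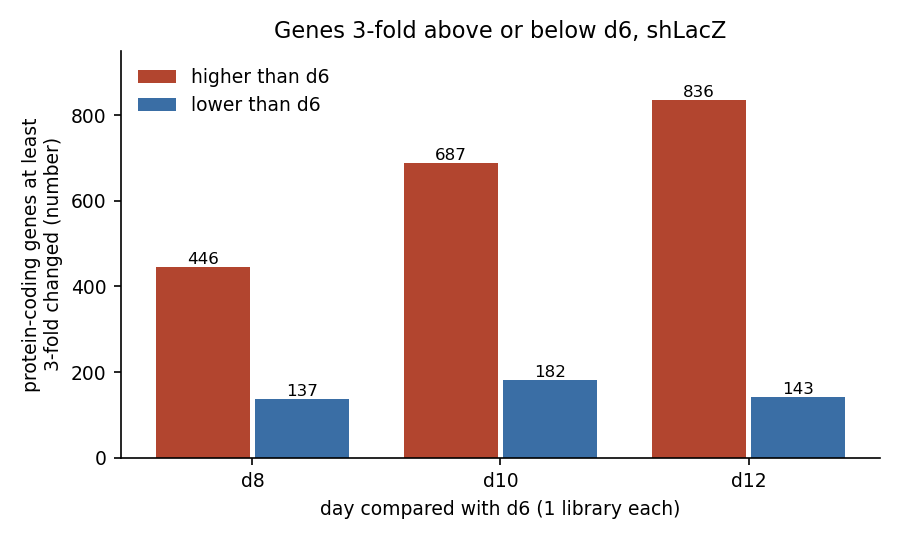
Bars give the number of protein-coding genes (y axis) at least 3-fold higher (red) or lower (blue) than at d6 in the shLacZ library of d8, d10 or d12 (x axis), with at least 1 CPM on 1 of the 2 days. The higher set grew from 446 to 836 genes and the lower set stayed between 137 and 182.

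Genes that kept moving in 1 direction were far more often going up. Of 13672 protein-coding genes with at least 1 CPM on 1 day, 459 (3.36%) were higher on each day than on the one before and at least 3-fold higher in all, and 46 (0.336%) were lower on each day and at least 3-fold lower in all. Without the fold criterion, 1895 genes went up at every step and 1207 went down. Among the 459, the median log2 step was 1.17 from d6 to d8, 0.75 to d10 and 0.59 to d12, and 108 of them were at or under the floor at d6. Among the 46 the steps were -0.85, -0.66 and -0.30. When the d8, d10 or d12 library was left out, 94, 100 and 130 genes were lower at every step and 629, 686 and 577 higher. Fewer steps had to be met in these counts, and without d12 the 3-fold criterion was set at d10. The part of either was not tested.

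The trend over the 4 days was tested with edgeR's quasi-likelihood test of the slope of log2 expression per day, with Benjamini-Hochberg adjustment over 15941 genes. It sets a slope against the scatter of the days about a straight line in this 1 culture series, not against other cultures. 298 genes rose (1.87%) and 47 fell (0.295%) at an adjusted p under 0.05. The calls changed with the libraries used. Without the d10 library 43 genes rose and 0 fell (2327 genes at an unadjusted p under 0.05), and without the d12 library 0 rose and 0 fell (2725 genes). Without d6 the counts were 660 and 451, and without d8 they were 450 and 121. A fit with 1 library fewer also has less power, and the part of any 1 day was not tested. DESeq2 called 671 rising and 348 falling genes. Changes below are the fitted log2 change over the 6 days from d6 to d12, with the standard error (SE).

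The 298 rising genes were mostly protein-coding (294) and 297 of them were higher on each day than on the last. Between d6 and d12, 180 went up at least 3-fold and 62 at least 10-fold, and the median fitted change was 1.94. Their median level was 19.7 CPM at d6 and 63.2 CPM at d12. In the earlier libraries of the line, which the fit did not use, it was 5.94, 7.9 and 12.9 CPM at d0, d2 and d4, so most were counted before d6, and 214 of 298 were higher at d6 than at d4. The 47 falling genes had a median fitted change of -0.83, 9 of them went down at least 3-fold, and 15 are pseudogenes. The median level of the falling genes was 195 CPM at d6, against 109 at d12.

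Gene length moved with the trend. The median length was 4688 bases in the rising genes and 1395 in the falling ones, against 3659 over all genes tested. In the shortest of 4 equal length classes (up to 1983 bases) 31 genes rose and 27 fell, and in the longest class (from 5967 bases) 106 rose and 6 fell. Of the falling genes, 8 carry the symbol of a ribosomal protein gene or a copy of one, which share reads and are uncertain singly. Over 91 protein-coding ribosomal protein genes the median fitted change was -0.45, with 83 below 0 and 3 passing the test. The part of length in the calls was not tested.

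The gastrokine genes Gkn1 and Gkn2 and 2 mucin-type genes were among the 10 protein-coding genes with the largest increases at every step. The 10 were taken from genes with a CPM of at least 10 on 1 day. Gkn2 (ENSMUSG00000030049, chromosome 6, 87373357 to 87379497 of GRCm38) and Gkn1 (ENSMUSG00000030050, chromosome 6, 87345650 to 87350942) encode gastrokines, proteins that cells of the stomach surface secrete, and lie in divergent orientation with 22415 bases between their annotated starts. Gkn2 was at 2.41 CPM (d6), 24.6 (d8), 102 (d10) and 369 CPM (d12). Gkn1 was at 1.35, 15.9, 61.9 and 229 CPM. Both genes were thus low at d6 and went up 3-fold or more at every step, and d12 stood 153-fold (interval 108 to 224) above d6 for Gkn2 and 169-fold (interval 107 to 286) for Gkn1. The fitted log2 change was 6.69 ± 0.46 for Gkn2 (edgeR adjusted p = 0.00675) and 6.61 ± 0.48 for Gkn1 (adjusted p = 0.00819). At d0, d2 and d4 neither was above 0.697 CPM.

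The starts of Gkn1 and Gkn2 are shown because this neighbouring pair moved together. The windows reach from 250 bases before to 50 bases after the start (RefSeq, GRCm38.p6; Gkn1 chr6:87350866-87351165, minus strand, and Gkn2 chr6:87373115-87373414, plus strand). Capitals mark GATAA, the letters that GATA factors are known to bind, or its reverse complement TTATC, searched on both strands.
Gkn1: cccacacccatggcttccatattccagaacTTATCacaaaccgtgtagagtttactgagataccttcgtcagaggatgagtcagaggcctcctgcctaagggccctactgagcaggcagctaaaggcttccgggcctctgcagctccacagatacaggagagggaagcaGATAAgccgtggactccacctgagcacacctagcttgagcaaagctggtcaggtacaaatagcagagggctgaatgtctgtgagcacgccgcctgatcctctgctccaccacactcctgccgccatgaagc
Gkn2: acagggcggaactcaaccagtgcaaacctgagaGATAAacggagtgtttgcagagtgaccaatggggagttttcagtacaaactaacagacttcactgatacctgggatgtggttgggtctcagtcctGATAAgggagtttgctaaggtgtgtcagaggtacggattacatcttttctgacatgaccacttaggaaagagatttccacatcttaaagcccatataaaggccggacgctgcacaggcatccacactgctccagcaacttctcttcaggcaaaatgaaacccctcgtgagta
Each window held 2 matches, at -220 and -81 in Gkn1 and at -217 and -122 in Gkn2, counted from the start with the base before it as -1. Of all 27025 windows of this kind 25.8% held the motif, of the 10550 of genes tested here 15.8%, and of the 236 of rising genes 11.9%. A match is a description of the letters only.

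The other 8 of the 10 largest increases began at or under 1.2 CPM. Ptk6, a tyrosine kinase of epithelia, went from 0.601 to 66.7 CPM, 111-fold (interval 56 to 258). Dpcr1, a mucin-like gene, was at 0.301, 1.48, 8.84 and 39.5 CPM, 131-fold (interval 50.9 to 484), and had the largest fitted change of the 10 at 7.0 ± 0.29 (edgeR adjusted p = 0.00378). The mucin gene Muc3a went from 3 reads at d6 to 124 at d12, 54.5-fold (interval 18.2 to 268). Fndc1, which encodes a protein with fibronectin type III domains, was at 1.2, 7.28, 31 and 72.3 CPM, 60.1-fold (interval 36.8 to 106). Trpc5os, at 1.13, 10.4, 25.4 and 63.2 CPM, lies opposite Trpc5, and reads of the pair cannot be told apart without strand. Mpeg1, a perforin-like gene of macrophages, had 1 read at d6 and 118 at d12, a ratio of 156 (interval 27.4 to 6201). Wfdc1 and Igfbp1, both secreted proteins, had no read at d6 and stood at 11.7 and 10.7 CPM at d12, at least 51.9-fold and at least 47.5-fold higher against the floor of 3 counts. Of the 10, Igfbp1 alone missed the trend test (adjusted p = 0.0686), and the highest adjusted p of the other 9 was 0.0326 (Wfdc1).

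**Figure D2:**
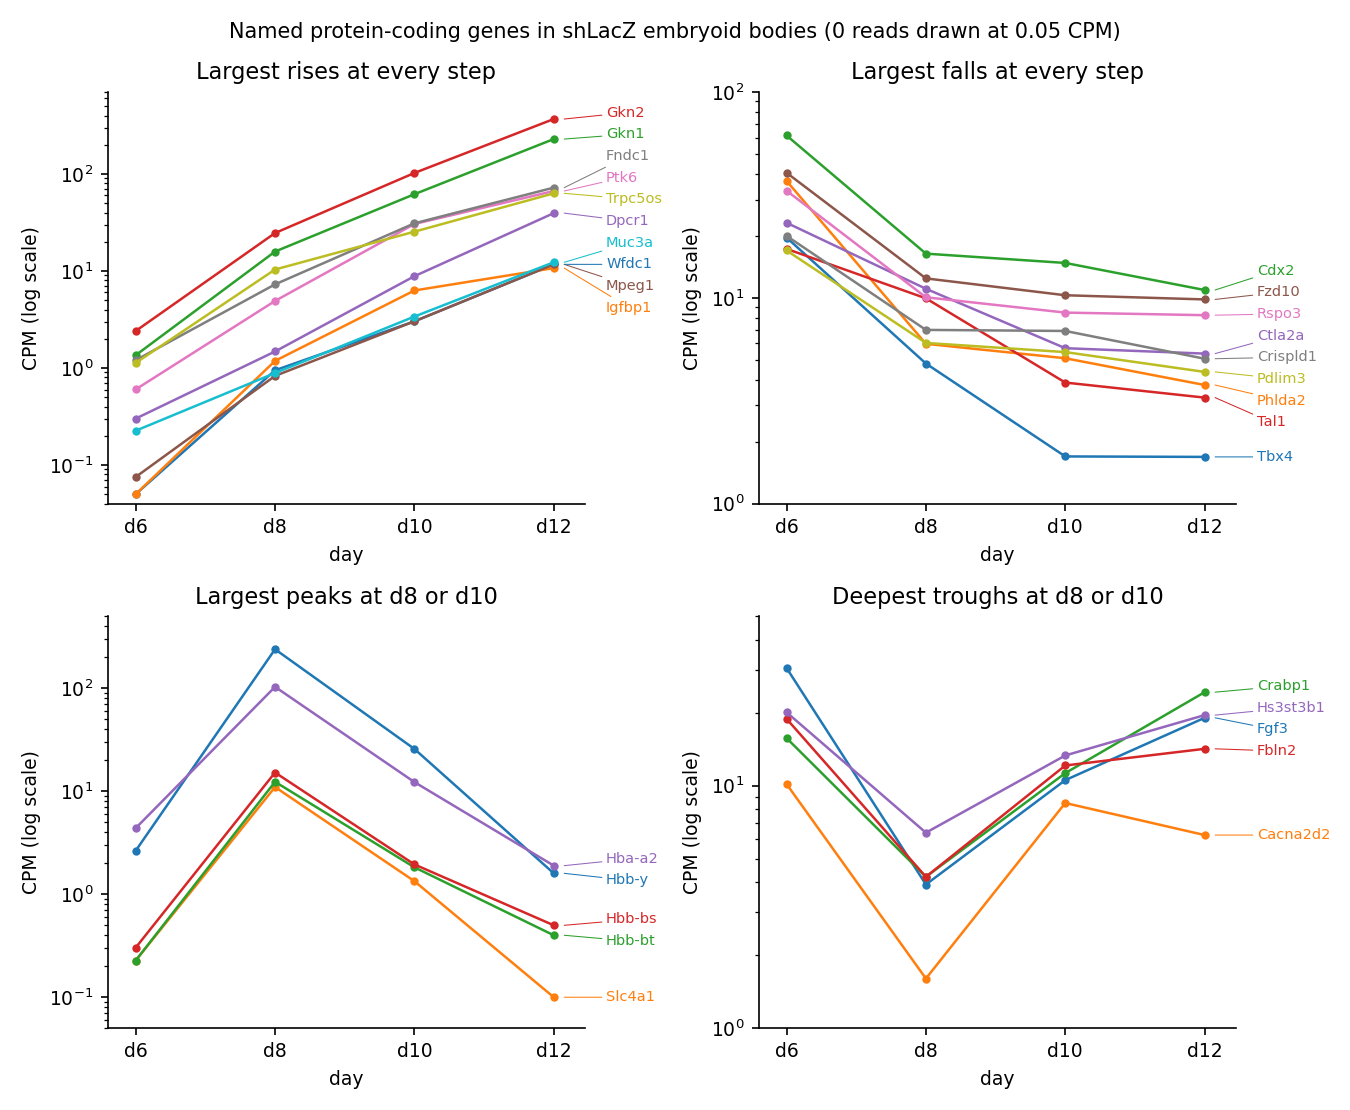
Each line is 1 gene in shLacZ, with the day on the x axis and CPM on a log y axis, and genes with no read are drawn at 0.05 CPM. The 4 panels hold the 10 largest increases and 9 of the 10 largest decreases at every step and the 5 largest peaks and troughs at d8 or d10. The increases go on to d12 (Gkn2 to 369 CPM), the decreases are mostly made by d10, and the globin peak at d8 is gone by d12.

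Basement membrane genes rose as a group. The list of 15 parietal endoderm-like genes holds the laminin and type IV collagen chains of Reichert's membrane with other genes that such cells express. Of these, 14 were counted well enough to be tested, and 14 of 14 rose, where 1.87% of all genes did. Like the other lists, it was chosen with earlier results of these data known, so this contrast is not independent support. Tfpi2 stayed below 1 CPM in every library. At d12, 13 of 14 were at least 3-fold higher than at d6, against 6.25% of all genes. The median log2 fold was 2.56 against 0.07 over all protein-coding genes. The medians at d8 and d10 were 0.82 and 1.80. The summed level of the list went from 10136 CPM at d6 through 17632 and 33845 to 54001 CPM at d12. The share of reads on protein-coding genes also went up from d6 to d12, and longer genes had more rising calls, as given above. The part of either was not tested. Without the d10 library 8 of the 14 passed the test and without the d12 library 0 did, while DESeq2 called all 14.

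The type IV collagen chains had the most reads of the list. Col4a1 was at 3212 CPM (d6), 5431 (d8), 10202 (d10) and 16487 CPM (d12). Col4a2 was at 1602, 2847, 5824 and 9585 CPM. At d12 Col4a1 stood 5.13-fold (interval 5.08 to 5.19) and Col4a2 5.98-fold (interval 5.89 to 6.07) above d6, and the fitted changes were 2.38 ± 0.13 and 2.62 ± 0.14 (edgeR adjusted p = 0.0044 for both). Col4a1 and Col4a2 lie head to head on chromosome 8 (11198423 to 11312826 and 11312805 to 11449287). Their start windows (RefSeq, GRCm38.p6; Col4a1 chr8:11312777-11313076, minus strand, and Col4a2 chr8:11312555-11312854, plus strand) are shown because the pair shares 1 start region. The 78 bases that both windows hold are in capitals, read on opposite strands.
Col4a1: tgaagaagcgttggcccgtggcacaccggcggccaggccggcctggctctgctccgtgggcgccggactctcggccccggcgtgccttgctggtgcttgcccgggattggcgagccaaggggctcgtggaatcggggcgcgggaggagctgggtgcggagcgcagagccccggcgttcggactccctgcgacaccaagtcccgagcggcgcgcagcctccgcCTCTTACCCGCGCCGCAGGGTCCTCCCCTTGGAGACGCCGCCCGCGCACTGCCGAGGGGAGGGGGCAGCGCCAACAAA
Col4a2: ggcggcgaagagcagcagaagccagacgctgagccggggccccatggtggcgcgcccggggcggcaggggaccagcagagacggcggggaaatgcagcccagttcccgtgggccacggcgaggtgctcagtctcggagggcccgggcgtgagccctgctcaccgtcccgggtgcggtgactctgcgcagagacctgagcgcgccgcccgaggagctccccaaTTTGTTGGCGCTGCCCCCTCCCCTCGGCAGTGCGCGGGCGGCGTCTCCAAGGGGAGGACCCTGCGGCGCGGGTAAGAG
Neither window held GATAA or its reverse complement.

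The laminin chains that make up the form of the early basement membrane moved alike. Lama1 was at 829.8, 1632, 3976 and 7092 CPM, 8.55-fold (interval 8.38 to 8.72) at d12. Lamb1 was at 819, 1404, 2871 and 5069 CPM, 6.19-fold (interval 6.06 to 6.32). Lamc1 was at 832, 1407, 3308 and 5774 CPM, 6.94-fold (interval 6.8 to 7.08). All 3 were higher on each day than on the last, and the fitted changes were 3.16 ± 0.16, 2.66 ± 0.13 and 2.87 ± 0.16 (edgeR adjusted p = 0.00418, 0.00418 and 0.0044). CPM is not corrected for gene length, so levels of different genes are not compared. Nid1, which links laminin to collagen IV, rose from 117 to 1018 CPM, with the largest step after d10. Sparc, a collagen-binding matrix protein, was at 1788, 3150.2, 4829 and 5710.4 CPM, and Serpinh1, a chaperone for collagen in the endoplasmic reticulum, at 662, 1048, 1557 and 1967 CPM. These last 2 had the smallest fitted changes of the tested members, 1.68 ± 0.21 and 1.57 ± 0.15 (edgeR adjusted p = 0.0294 and 0.0149).

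Signalling and surface genes of the same list rose as well. Fst, a secreted inhibitor of activin, was at 24.6, 43.9, 128 and 222 CPM, a fitted change of 3.30 ± 0.22. Pth1r, the receptor for parathyroid hormone-related protein, was at 90.3, 179, 321 and 392 CPM, and Plat, tissue plasminogen activator, at 46.1, 96.3, 139 and 203 CPM. Thbd, thrombomodulin, went from 6 reads (0.451 CPM) at d6 to 14.8 CPM at d12, 32.8-fold (interval 14.7 to 90.7), the largest fold of the list. Srgn, a proteoglycan core protein, went from 108 to 444 CPM and Stra6, a retinol transporter, from 3.98 to 23.1 CPM. The highest adjusted p among the 14 genes was 0.0294 (Sparc). In shDis3l2, 8 of 14 passed the same test in that line's own 4 libraries, with a median fitted change of 2.59 against 2.59 in shLacZ.

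**Figure D3:**
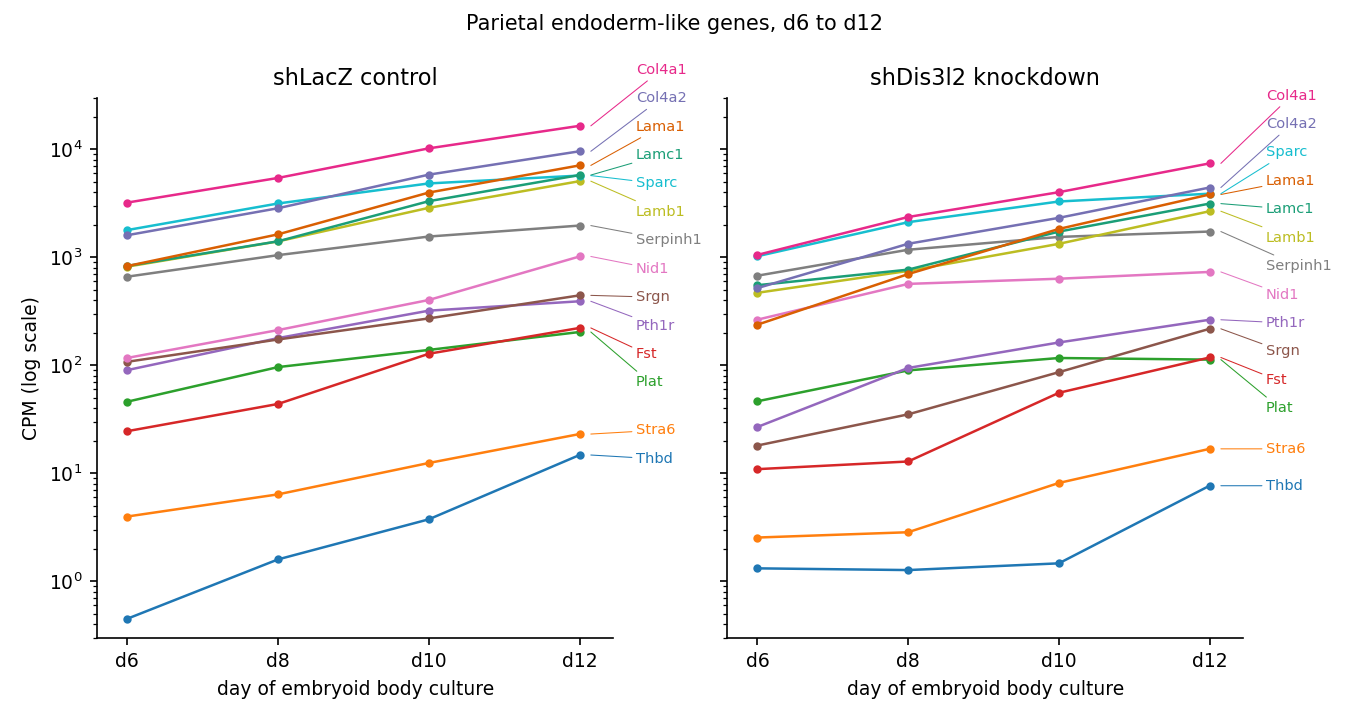
CPM on a log y axis by day (x axis) for the 14 tested parietal endoderm-like genes, each a line labelled at d12, in shLacZ (left) and shDis3l2 (right), with 1 library per point. In shLacZ every line goes up at every step, from 3212 to 16487 CPM for Col4a1 and from 0.451 to 14.8 CPM for Thbd.

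In the list of hypoxia and glycolysis genes, 3 of 22 tested members rose and 0 fell, against 1.87% and 0.295% of all genes. P4ha1 and P4ha2, catalytic subunits of the prolyl 4-hydroxylase that acts on collagen, were at 199, 356, 486 and 574 CPM and at 61.3, 114, 264 and 466 CPM. Their fitted changes were 1.48 ± 0.21 and 2.98 ± 0.14 (edgeR adjusted p = 0.0394 and 0.00418). With Ndrg1 (44.9 to 79.3 CPM), a stress-response gene, they were the 3 that rose. The members with the most reads, which serve glucose uptake and breakdown, gave other values: Slc2a3 was at 2892, 3203, 2931 and 2047 CPM, Pkm at 1792, 1561, 1662 and 1603 CPM and Ldha at 896, 948, 1075 and 958 CPM. The median log2 fold of the list at d12 was 0.40.

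Most genes of secreted proteins of yolk sac and liver type stood far above d6. Of 20 with at least 1 CPM, 17 were at least 3-fold higher at d12 than at d6 and 0 lower (6.25% and 1.07% of all genes). The median log2 folds were 2.26 (d8), 3.68 (d10) and 3.50 (d12). Afp, alpha-fetoprotein, was at 88.8 CPM (d6), 425 (d8), 1440.4 (d10) and 938 CPM (d12). Apob was at 806, 2429, 2656 and 1647 CPM, Ttr, a carrier of thyroid hormone, at 149.5, 569, 727 and 449.7 CPM, and Rbp4, the retinol carrier, at 46, 317, 609 and 280.1 CPM. In these members d10 was the highest day and d12 lay below it, so a straight line could not describe them well, and Afp missed the trend test with a fitted change of 3.79 ± 1.10 (edgeR adjusted p = 0.131). The summed level followed them, with 1167, 4100.1, 6002 and 3763 CPM.

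Members with fewer reads went on to d12. Fga, a fibrinogen chain, was at 0.301, 2.37, 8.59 and 13 CPM, and Ambp, a plasma protein precursor, at 0.225, 1.24, 3.75 and 6.35 CPM. These were the 2 of 18 tested genes that rose (edgeR adjusted p = 0.0478 and 0.0436), where 1.87% of all genes did. At d6 Ambp stood at the floor of 3 counts and Fga close above it, so both calls start from very few reads. Alb, albumin, had 0 reads at d6 and 1.29 CPM at d12, at least 5.72-fold higher against the floor. 11 of the 24 genes had their highest value at d12, 9 at d10 and 3 at d8, and Apoh, named after its value was seen, had no read in any of the 4 libraries.

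Genes for uptake by the visceral endoderm were mostly higher at d8 and d10 than at d6. At d8 20 of 20 were higher than at d6, 4 of them 3-fold (3.39% of all genes). At d10 18 of 20 were higher, 3 of them 3-fold (5.18% of all genes). The median log2 folds were 0.71 (d8), 0.83 (d10) and 0.35 (d12). Their summed level was 7839.8, 11715, 9509 and 7567 CPM. None of the 20 passed the trend test in either direction with edgeR. At d12 1 of 20 was 3-fold higher, against 6.25% of all genes. This was the claudin gene Cldn2 (named after its value was seen), 5.01-fold higher (interval 3.33 to 7.77). Cubn, the receptor cubilin, was at 1618, 2258, 1143 and 927 CPM, and Lrp2, its partner megalin, at 1239.7, 1498, 908 and 833 CPM. Both were highest at d8 and lowest at d12. Dab2, their endocytic adaptor, was at 777, 1167, 1075 and 889.8 CPM and the protease gene Ctsl at 2055, 3149, 3020.5 and 2485 CPM. The day of the highest value was d8 for 12 of the 20 genes, d10 for 7 and d12 for 1.

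Of the transcription factors of the endoderm, 4 of 17 tested rose and 0 fell over the 4 days, against 1.87% and 0.295% of all genes. Gata4 and Gata6, which direct extraembryonic endoderm, were at 192, 247, 351 and 400.0 CPM and at 60.9, 71.2, 92.2 and 159 CPM, with fitted changes of 1.09 ± 0.13 and 1.35 ± 0.19 (edgeR adjusted p = 0.0269 and 0.0378). Foxa2, a forkhead factor of endoderm, was at 22.8, 31.6, 48.2 and 71.3 CPM and Tcf7l2, a transcription factor of the Wnt pathway, at 21.3, 41.1, 60.9 and 74.6 CPM, with fitted changes of 1.64 ± 0.14 and 1.76 ± 0.24 (adjusted p = 0.0115 and 0.0368). Sox17 reached 109 CPM from 45.2 but missed the threshold (adjusted p = 0.0682). Hnf4a, the nuclear receptor behind many liver genes, was at 54.6, 102, 101 and 88.4 CPM. The median log2 fold of the list at d12 was 1.02.

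The transcription factor genes Tbx4, Cdx2 and Tal1 were among the 10 with the largest decreases at every step. Tbx4, a T-box factor of the allantois and hindlimb, was at 19.6 CPM (d6), 4.79 (d8), 1.69 (d10) and 1.69 CPM (d12), 0.0859 times (interval 0.0493 to 0.14) its d6 level at d12. Cdx2, a caudal-type factor of trophectoderm and posterior body, was at 61.5, 16.4, 14.8 and 10.9 CPM, and Tal1, a factor needed for blood, was at 17.3, 9.94, 3.87 and 3.27 CPM. In these genes most of the decrease was made by d10. Of the 9 described here, Tbx4, Tal1 and Ctla2a, a protease inhibitor, passed the trend test (fitted changes -3.90 ± 0.59, -2.60 ± 0.35 and -2.24 ± 0.34, edgeR adjusted p = 0.0426, 0.0348 and 0.0436). The other 6 had adjusted p-values between 0.0725 (Cdx2) and 0.10 (Rspo3).

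The rest of these 9 held signalling genes. Fzd10, a Wnt receptor, was at 40.5, 12.4, 10.3 and 9.82 CPM and Rspo3, a secreted enhancer of Wnt signalling, at 33.1, 10.1, 8.47 and 8.23 CPM. Phlda2, an imprinted gene that restrains placental growth, was at 37, 5.98, 5.08 and 3.77 CPM, and at d8 it stood already at 0.162 times (interval 0.129 to 0.201) its d6 level. Crispld1 and Pdlim3, a secreted and an actin-associated protein, ended at 0.253 times (interval 0.184 to 0.342) and 0.257 times (interval 0.182 to 0.356) their d6 levels. At d4 Cdx2 was at 17.7 CPM, below its d6 level.

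A wave of red blood cell genes had its crest at d8. Of the 21 erythroid-like genes in the table, 20 were highest at d8, and the 21 summed to 91.9, 1051, 96.1 and 18.5 CPM. Hbb-y, an embryonic beta-type globin, was at 2.63 CPM (d6), 239 (d8), 25.7 (d10) and 1.59 CPM (d12). The other embryonic globins followed, with Hbb-bh1 at 37.7, 325, 14.5 and 2.28 CPM and Hba-x at 14.7, 219.5, 16.3 and 1.19 CPM. At d12 Hbb-bh1 and Hba-x were below their d6 level, at 0.0606 times (interval 0.038 to 0.0919) and 0.0812 times (interval 0.0412 to 0.145), while the interval for Hbb-y reached from 0.312 to 1.12 times. Between d6 and d8, Hbb-y was 90.8-fold (interval 65.2 to 131) higher and Hba-x 15-fold (interval 13 to 17.4).

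The same course was seen outside the globins. Slc4a1, the anion exchanger of the red cell membrane, had 3, 185, 11 and 1 reads on the 4 days. Alas2, the first enzyme of heme synthesis in red cells, was at 2.41, 20.2, 1.45 and 0.198 CPM and Gata1, the factor that drives these genes, at 1.5, 4.56, 0.968 and 0.298 CPM. Hbb-bs, Hbb-bt and Hba-a2, the adult-type globins, were at 15.1, 12.3 and 103 CPM at d8 and at 0.496, 0.397 and 1.88 CPM at d12, and are uncertain singly because they share reads with near-identical copies. Of 11 compared at d12, 5 were 3-fold lower than at d6 (1.07% of all genes), with a median of -1.21. Tal1, named above, was the 1 of 14 tested that fell, where 0.295% of all genes did. In shDis3l2 the sum of the list was also highest at d8, at 1756 CPM between 211 at d6 and 194 at d10. The d8 library had the most reads of the 4, which CPM corrects for.

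The start windows of an embryonic globin of each cluster are shown because the peak at d8 is the pattern described here (RefSeq, GRCm38.p6; Hbb-y chr7:103853158-103853457, minus strand, and Hba-x chr11:32276350-32276649, plus strand). Capitals mark GATAA or its reverse complement and CACCC, the letters that Klf factors are known to bind, or its reverse complement GGGTG, both searched on both strands. No match of the one overlapped a match of the other in these windows.
Hbb-y: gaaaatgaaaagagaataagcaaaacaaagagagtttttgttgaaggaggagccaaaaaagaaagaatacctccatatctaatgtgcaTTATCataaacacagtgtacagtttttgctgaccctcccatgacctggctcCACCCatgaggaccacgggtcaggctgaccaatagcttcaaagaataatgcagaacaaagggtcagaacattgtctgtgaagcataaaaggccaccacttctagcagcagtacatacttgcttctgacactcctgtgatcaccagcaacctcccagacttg
Hba-x: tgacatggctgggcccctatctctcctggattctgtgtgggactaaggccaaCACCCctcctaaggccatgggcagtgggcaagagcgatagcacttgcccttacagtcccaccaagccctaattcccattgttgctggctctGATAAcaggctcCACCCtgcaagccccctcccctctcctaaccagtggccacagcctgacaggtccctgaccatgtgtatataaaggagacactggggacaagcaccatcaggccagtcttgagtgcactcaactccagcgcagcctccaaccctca
Hbb-y held GATAA at -162 (as its reverse complement) and CACCC at -111, and Hba-x held GATAA at -107 and CACCC at -198 and -95. Of the 17 erythroid-like genes with a window, 15 held GATAA and 15 held CACCC, against 25.8% and 56.7% of all windows. Of the windows of genes tested here, 15.8% and 63.4% held them. The list holds near-identical globin copies, so its windows are not independent, and a match describes the letters only.

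The 5 deepest troughs also lay at d8. Fgf3, a fibroblast growth factor, was at 30.6, 3.9, 10.5 and 19 CPM, and Crabp1, a retinoic acid-binding protein, at 15.7, 4.2, 11.3 and 24.3 CPM. Fbln2, a matrix fibulin, was at 18.9, 4.2, 12.1 and 14.2 CPM, Hs3st3b1, a heparan sulfate sulfotransferase, at 20.1, 6.39, 13.3 and 19.5 CPM and Cacna2d2, a calcium channel subunit, at 10.1, 1.6, 8.47 and 6.25 CPM. All 5 were lowest at d8 and higher again at d10, and Crabp1 ended above its d6 level at 1.55-fold (interval 1.28 to 1.87).

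Genes of the primitive streak dipped at d8 as well. Of 14 compared, 6 were 3-fold lower at d8 and 0 higher, against 1.04% and 3.39% of all genes. At d10, 0 of 17 were lower and 2 higher, against 1.37% and 5.18%. The medians were -1.35, 0.31 and -0.85 at d8, d10 and d12. Eomes, a T-box factor of the streak, was at 37, 14.9, 45.9 and 18 CPM, and Mixl1, a homeobox factor of mesendoderm, at 19.2, 3.37, 16.3 and 3.97 CPM. Both were low at d8, back near the d6 level at d10 and low again at d12. Snai1, which represses epithelial genes, was the 1 gene of 17 tested that rose, where 1.87% of all genes did. It was at 8.87, 8.58, 31.6 and 55.9 CPM (fitted change 2.93 ± 0.44, edgeR adjusted p = 0.0426).

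Mesenchyme-like genes took different courses. Of 27 compared at d12, 12 were 3-fold higher and 1 lower, against 6.25% and 1.07% of all genes, with a median of 0.49. The lower one was the transcription factor gene Twist2 (log2 fold -1.81). Prrx1, Twist1 and Prrx2, also transcription factor genes, were lower than at d6 as well (-1.55, -1.09 and -0.94). Snai1 and Tcf21 were higher (2.65 and 1.64), as were 15 of the 27 in all. Twist1, Twist2, Prrx1, Prrx2 and Tcf21 were named after their values were seen. Fibrillar collagen and matrix genes stepped up by d8 and were lower again at d12: Col3a1 was at 43.4, 863, 697 and 493 CPM, Postn at 21, 324, 182 and 120.3 CPM and Lum, a small proteoglycan, at 0.752, 59, 51.7 and 39.9 CPM. Col6a1 and Col6a2, chains of collagen VI, went on rising to d12, at 5.94, 13.4, 35.8 and 42.9 CPM and at 1.2, 2.9, 11.1 and 18.7 CPM. With Pdgfra, the receptor for platelet-derived growth factor (204 to 479.7 CPM), and Snai1, they were the 4 of 27 that passed the test (edgeR adjusted p between 0.0188 and 0.0426). Over all genes 1.87% rose. The member with the most reads, Fn1, was at 1498, 1587, 1104 and 1129 CPM and Vim at 488, 379, 274 and 311 CPM.

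Endothelial-like genes gave a mixed picture. Of 22 compared, 12 had their highest value at d8. At d12 3 were 3-fold higher than at d6 and 2 lower, against 6.25% and 1.07% of all genes. Kdr, the VEGF receptor of endothelial progenitors, was at 109, 70.6, 26.4 and 32.5 CPM (fitted change -1.98 ± 0.39, edgeR adjusted p = 0.075), while Flt1, the other VEGF receptor named here, rose and was at 57.8, 99.2, 174 and 181 CPM (1.72 ± 0.27, adjusted p = 0.046). Cdh5, the cadherin of endothelial junctions, was at 27.4, 58.3, 34 and 119 CPM, with no even course. Etv2, a factor of the first blood and endothelial progenitors, was at 0.163 times (interval 0.0842 to 0.292) its d6 level at d12.

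Of the 24 cardiomyocyte-like genes, 7 of 18 compared were 3-fold higher at d12, where 6.25% of all genes were, with a median of 0.87. Myl3, a myosin light chain, was the 1 of 17 tested that rose (against 1.87% of all genes), at 4.13, 10.1, 16.2 and 31 CPM (fitted change 2.76 ± 0.25, edgeR adjusted p = 0.0128). Tnnt2, cardiac troponin T, was at 1.05, 2.25, 3.87 and 5.95 CPM and Ryr2, the calcium release channel, at 7.97, 20.1, 26.3 and 33.5 CPM. The defining genes Nppa, Pln, Nkx2-5 and Tbx5 stayed under 1 CPM in all 4 libraries. Hand1 and Hand2, which other mesoderm also expresses, were at 151, 52.5, 28.3 and 65.9 CPM and at 40.4, 26.5, 14.2 and 19.5 CPM. Among 14 smooth muscle-like genes tested with edgeR, 0 rose and 0 fell. At d12, 3 of 14 compared were 3-fold higher than at d6 and 1 lower, against 6.25% and 1.07% of all genes. These were Synpo2, Pcp4l1 and Mylk (log2 folds of 1.72, 1.91 and 2.40) and Tagln (-2.07). Acta2, smooth muscle actin, was at 59.2, 136, 64.6 and 52.4 CPM and Tpm1, tropomyosin, at 573, 276, 269.7 and 313 CPM.

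Neural-like genes were at low level and mostly highest at d12. The list summed to 137, 128, 178 and 236 CPM. 14 of 23 were highest at d12, and 6 of 18 compared were 3-fold higher than at d6 (6.25% of all genes), with a median of 0.95. Pax6, a homeobox factor of neural progenitors and eye, was at 0.376, 0.828, 1.33 and 5.55 CPM, and Elavl4, an RNA-binding protein of neurons, at 0.451, 1.12, 1.94 and 4.56 CPM. They were the 2 of 17 that rose (fitted changes 3.87 ± 0.58 and 3.16 ± 0.49, edgeR adjusted p = 0.0421 and 0.0442), where 1.87% of all genes did. Sox1, a marker of early neural cells, had 6 reads at d6 and reached 8.43 CPM at d12, and Tubb3, a tubulin of neurons, was at 12, 7.16, 15.7 and 35.1 CPM. Gap43, Pax3 and Nes were lower at d12 than at d6 (log2 folds of -1.08, -0.775 and -0.25), while 15 of 18 compared were higher. The defining neuronal genes Dcx, Neurog1 and Neurog2 stayed under 1 CPM in all 4 libraries.

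In some lists no member was 3-fold higher or lower at d12. These were proliferation, let-7 and fetal growth, cell cycle inhibitors and p53 targets, epithelial, and lysosome and protease genes. The mitochondrially encoded genes, described further below, were also among them. Among 26 proliferation genes 3 had a fitted change above 0, with a median log2 fold of -0.26, and Mki67 was at 412, 440.2, 376 and 419 CPM. Growth and let-7 pathway genes had a median of -0.32, with Lin28a, the inhibitor of let-7 processing, at 389.6, 368, 351 and 319.5 CPM and Igf2 at 946, 1099.9, 779 and 802 CPM. Of the 18 cell cycle inhibitors and p53 targets, Trp53inp1 fell, from 507 to 255 CPM (fitted change -1.01 ± 0.13, edgeR adjusted p = 0.0285), and Cdkn1a was at 163, 168, 198 and 179.6 CPM. Epithelial genes had a median of 0.19, and edgeR called 0 of 21 rising and 0 falling, with Cdh1, E-cadherin, at 350.4, 489.7, 562 and 402 CPM. Of 23 lysosome and protease genes Psap rose, from 231 to 595 CPM (adjusted p = 0.0267).

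Of 25 cholesterol and lipid genes, 2 rose: Insig1, which holds back sterol synthesis, at 62.4, 144, 208 and 267 CPM, and Srebf1, a master factor of lipid synthesis, at 71.8, 82.9, 104 and 122 CPM (adjusted p = 0.040 and 0.0436). Among the 25 compared at d12, 4 were 3-fold higher and 0 lower, against 6.25% and 1.07% of all genes, with a median of 0.35. Beside Insig1 these were Abca1, a cholesterol exporter (13.8 to 78.3 CPM), the fatty acid receptor gene Cd36 (0.301 to 1.39 CPM) and the nuclear receptor gene Pparg (1.43 to 4.96 CPM). Of 17 antigen presentation and interferon genes, 2 were 3-fold higher and 1 lower at d12, beside the same shares of all genes, with a median of 0.57. Ifit1, an interferon-induced gene, had no read at d6 and stood at 2.08 CPM at d12, at least 9.24-fold higher against the floor, Ifit3, of the same family, went from 2 reads to 2.18 CPM, 14.5-fold (interval 3.57 to 127), and the proteasome subunit gene Psmb8 was at 2.48, 0.651, 1.94 and 0.496 CPM. Among 17 immediate early and heat shock genes, 1, Hspa1b, which shares reads with a near-identical copy and is uncertain, was 3-fold higher, and the median was 0.21. With edgeR 0 of 17 antigen presentation and interferon genes and 0 of 16 immediate early and heat shock genes passed the trend test in either direction.

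**Figure D4:**
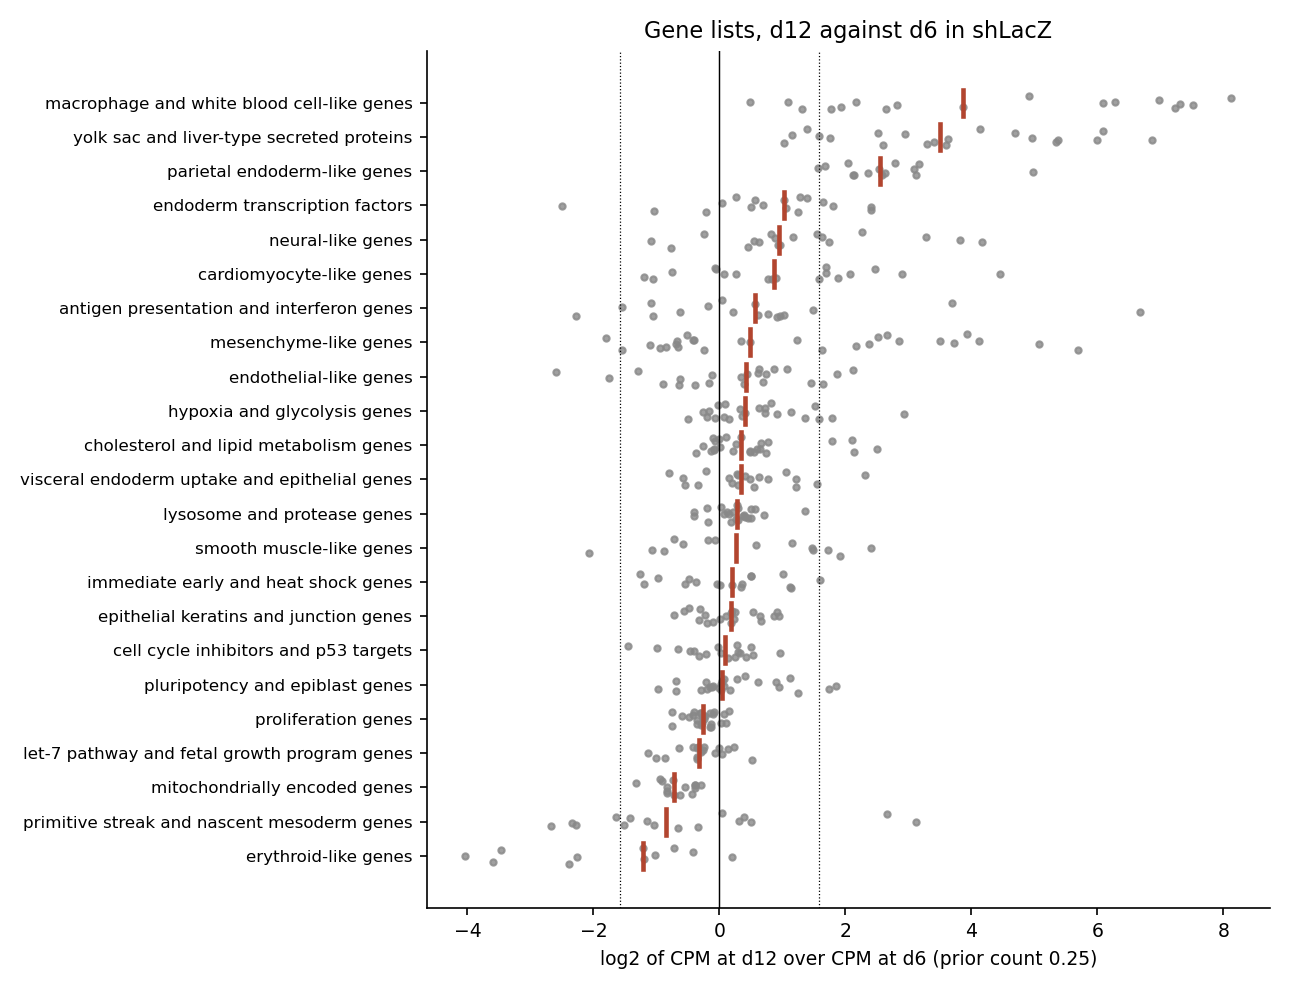
Each grey point is 1 gene of a list with at least 1 CPM at d6 or d12 in shLacZ, placed by its log2 CPM ratio of d12 to d6 (x axis, prior count 0.25), with lists on the y axis in order of their median (red bar) and dotted lines at 3-fold. The parietal endoderm-like list lies wholly above 0 with its median at 2.56, and the erythroid-like list has the lowest median, -1.21.

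Among genes that do not code for protein, 3 increases and 3 decreases were taken by the same rule. The unnamed genes Gm42528 and 9030622O22Rik rose, from 1.43 to 11.3 and from 2.71 to 18.9 CPM (edgeR adjusted p = 0.0363 and 0.0191). Six3os1, which lies opposite the eye and forebrain gene Six3, was at 0.526, 0.828, 0.847 and 10.1 CPM and was not tested because its counts were too low, and reads of the pair cannot be told apart without strand. Xist, the RNA that coats the inactive X chromosome, fell from 24.8 to 4.96 CPM (fitted change -2.19 ± 0.27, adjusted p = 0.0269). Calr-ps, a pseudogene that can share reads with Calr, was at 14.2, 14.1, 2.42 and 1.79 CPM and Gm35857 at 16.7, 16.4, 12.1 and 8.33 CPM, and both missed the test (adjusted p = 0.0871 and 0.105).

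The shDis3l2 line gave 4 libraries of the same days that had no part in the calls above. Most genes that rose in shLacZ also went up there. Of the 298 rising genes 291 were tested in shDis3l2, 287 had a fitted change above 0 and 91 (31.3%) passed the test in that line, where 253 of 17035 genes rose (1.49%) and 97 fell (0.569%). Of the 47 falling genes 46 were tested, 44 had a fitted change below 0 and 6 (13%) passed. Over all 15644 genes tested in both lines, 74.9% had the same sign, and Pearson's r of the fitted changes was 0.662 across genes, which are not independent replicates. The median fitted change of the rising genes was 1.61 in shDis3l2 and 1.91 in shLacZ, the line they were called in.

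Single genes of the groups above behaved alike in both lines or apart. Gkn2 was at 0.377, 5.9, 24.4 and 133 CPM in shDis3l2 (fitted change 7.25, edgeR adjusted p = 0.024) and Gkn1 at 0, 5.34, 18.1 and 84.6 CPM. Col4a1 was at 1052, 2361, 4007 and 7404 CPM, lower on each day than in shLacZ. Col3a1 and Col6a2 were at 208, 4647, 7502 and 7939 CPM and at 6.41, 28.4, 254 and 507 CPM, higher on each day than in shLacZ. Afp was at 8.01, 82.3, 468 and 414 CPM, and again highest at d10.

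A difference of the trend between the lines was tested with edgeR over the 8 libraries and called 0 of 17164 genes (0.0%), with a smallest adjusted p of 0.171 and 1360 genes (7.92%) at an unadjusted p under 0.05. DESeq2 called 123, and edgeR called 210 with day as a factor shared by both lines and 14 without the filter on low counts. The count of 0 therefore does not show that the lines mature alike. Among the 298 rising genes 72 had an unadjusted p under 0.05 for the difference, 45 of them less steep in shDis3l2. These genes were chosen by their slope in shLacZ libraries that are also part of this test. No conclusion on the lines is therefore drawn from the 72 and the 45. No gene named here can be called particular to the control line.

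**Figure D5:**
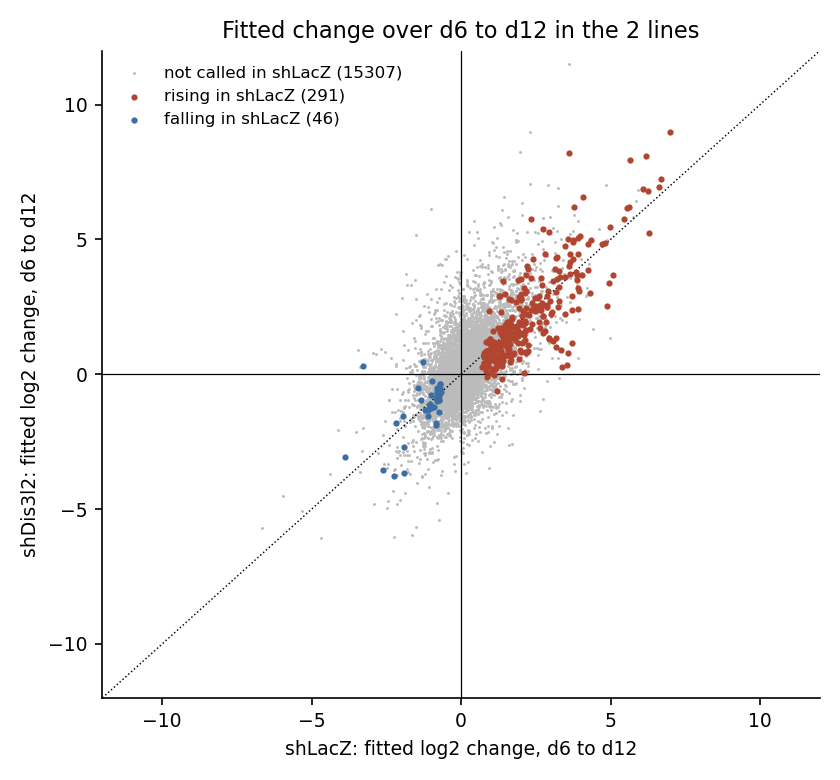
Each point is 1 of 15644 genes, placed by its fitted log2 change from d6 to d12 in shLacZ (x axis) and in shDis3l2 (y axis), with genes rising or falling in shLacZ in red and blue and the dotted line at equal change. Of the red points 287 of 291 lie above 0 on the y axis, and of the blue ones 44 of 46 below it.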

How the data were processed

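PolyA RNA of shLacZ and shDis3l2 EBs was sequenced, as a single library for every line and day. Per the labels, the authors used Subread on GRCm38, and the deposited counts are whole, unscaled reads per gene from featureCounts. A second deposited table holds CPM of protein-coding genes, made by the authors with edgeR. Its values equal the CPM of the count plus 0.25, and it was used for gene symbols. Fold changes used CPM from library totals over all genes with a prior count of 0.25.

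Trends were fitted with edgeR 4.0.16 in R 4.3.3 (TMM, filterByExpr, quasi-likelihood F test, adjusted p under 0.05), with 2 residual degrees of freedom over 4 libraries and 4 over 8. DESeq2 1.42.0 was the alternative. Scripts were tested on simulated data. Python 3.11.15 (matplotlib 3.10.9, pandas 2.3.3, scipy 1.17.1, numpy 2.4.6) served for the rest. Reads carried no molecular identifiers and may be PCR copies, so intervals and floors stand for counting error only. Libraries were grouped by their titles. Nothing states that they came from separate cultures.

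The members and the 23 gene lists were chosen with earlier results of these data known. Named genes are the 10 largest and 10 smallest d12 to d6 ratios among protein-coding genes that moved at every step with a CPM of at least 10 on 1 day, the 5 largest peaks and troughs, 3 noncoding rises and falls, the 4 most abundant members of each list with members a sentence turns on, and Dis3l2. List members under 3-fold that passed the trend test, and defining markers near 0, were named after their values were seen. A few genes that the rule would name are not reported here. Alternatives covered scaling, low-count filters, fold size, tool and left-out libraries.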

Additional observations from a re-analysis of the deposited data

How the results depend on the processing

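No paired analysis was possible because the labels carry no replicate numbers, and the 4 control libraries have no partner within their line. The lines share days, and a fit with day as a factor, which pairs them by day, is given with the difference of trend below. The trend calls (298 rising, 47 falling) stayed within 1.5 times under library sizes, DESeq2 size factors, the stricter CPM filter and the slope from the fit over both lines, though this last shared only 224 rising and 23 falling genes with them. They were 671 and 348 with DESeq2 and 779 and 427 without a filter on low counts. When 1 library was left out they ranged from 0 to 660 and from 0 to 451. Such a fit has fewer residual degrees of freedom, so it cannot tell the part of a day from lost power. Of the 64 genes named with a trend, all 51 past the threshold lost it without d12 and 35 without d10. With the slope from both lines 9 lost it, with the stricter CPM filter 2 (Fga and Flt1) and without d6 1. With DESeq2 11 more passed, and no gene turned its direction under any alternative. For the difference of trend between the lines, 0 became 81 steeper and 42 less steep in shDis3l2 with DESeq2, 11 and 3 without a filter, and 146 and 64 with day as a factor, and stayed at 0 without any 1 of the 8 libraries. Higher and lower genes at 3-fold numbered 1746 and 777 (d8), 1775 and 1026 (d10) and 2129 and 848 (d12) with no minimum CPM, 188 and 66, 308 and 83, and 385 and 73 with a CPM of at least 5, and 927 and 344, 1312 and 439, and 1569 and 402 at 2-fold. Against d8 in place of d6, a comparison added after seeing the data, 359 were higher at d12. At every step, 203 genes were lower with no minimum CPM, 261 higher and 30 lower with a CPM of at least 5, and 778 higher and 106 lower at 2-fold. Leaving out d8, d10 or d12, also added later, gave 94 to 130 lower genes. Library scaling moved none of these counts beyond 1.5 times. The causes of the other shifts were not tested, beyond the wider or narrower criteria themselves. Depth limits genes near 3 counts, and with 1 library per day no fold has a replicate check.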

Other observations

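Genes of macrophages and other white blood cells were mostly counted late. Of 17 such genes with at least 1 CPM at d6 or d12, 14 were at least 3-fold higher at d12, against 6.25% of all genes. The median log2 fold was 3.87, and 9 of 21 had no read at d6 against 1 at d12. C1qb, a chain of complement C1q, had no read at d6 or d8, 0.121 CPM at d10 and 5.75 CPM at d12, and Adgre1, the macrophage antigen F4/80, 0.242 and 3.77 CPM. Csf1r, the receptor that macrophages need, was at 3.01, 6.51, 10.2 and 11.5 CPM (3.83 times its d6 level, interval 2.65 to 5.63). The level stayed low, with the whole list at 71.8 CPM at d12, and in shDis3l2 it summed to 311 CPM. The edgeR trend test called 0 of the 7 members it could test.

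Pluripotency genes were still counted at d12. The median log2 fold of the 25 genes was 0.04, none was 3-fold lower than at d6, and Pou5f1, which encodes Oct4, was at 117, 163, 218 and 143 CPM and Dnmt3b at 240.1, 367, 427 and 252 CPM. Klf4 rose, at 43.8, 64.3, 121 and 158 CPM (fitted change 1.92 ± 0.17, edgeR adjusted p = 0.0123). All 15 mitochondrially encoded genes were lower at d12 than at d6, with a median log2 fold of -0.71, and 14 of 15 were highest at d8. Their summed share of the reads was 6.08% at its highest (d8) and 3.62% at d12, and edgeR called 0 of them.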
